A study of Ambystoma mexicanum with 5 samples.

Results

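The chaperones described here are 91 gene models of the axolotl (Ambystoma mexicanum) kidney transcriptome. They were chosen by name and by a minimum of counts, and 22 of them overlap another gene model, among them DNAJB9, DNAJC21 and the HSP70 pair on chromosome 13q. A gene model was taken when any part of its deposited name began with HSPA, HSPB, HSPD, HSPE, HSPH, HSP90, DNAJA, DNAJB or DNAJC, was BAG, CCT or HSF followed by a digit, or was TCP1. It also needed at least 10 counts summed over the 5 libraries. The names matched 123 of the 100758 gene models in the table, and 91 of those reached the count minimum, which 27604 gene models reached in all. The 91 gene models carried 73 gene symbols, and 15 symbols had more than 1 gene model. RNA came from the kidneys of 5 different animals, 1 library each: 2 axolotls injured with gentamicin, an aminoglycoside antibiotic that harms kidney tubules, and 3 untreated controls. The gentamicin libraries are numbered 1 and 3 and the controls 1, 2 and 3. The gentamicin titles also carry a further number whose meaning was not given. Strain, age, dose and time after treatment were not given in the sources used here.

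Chaperones hold unfolded proteins and help them to fold. HSP70 proteins bind exposed stretches of a client in a cycle driven by ATP, J proteins (DNAJ) deliver clients and start ATP hydrolysis, and exchange factors such as BAG proteins and HSP110 let the client go. HSP90 finishes the folding of kinases and receptors, HSP60 folds proteins inside the mitochondrial matrix, and the ring complex TRiC (subunits CCT and TCP1) folds actin and tubulin. The heat shock factors (HSF) switch on many of these genes when unfolded protein builds up, above all the inducible HSP70s, DNAJB1, BAG3 and small HSPs.

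Library depth lay between 13674201 and 16404879 counts, and 3 counts, taken as the detection floor, were worth 0.156 to 0.244 CPM (counts scaled to a common total, with libraries scaled by the trimmed mean of M values, TMM). Kidney identity was checked on markers. In the controls, proximal tubule genes such as LRP2 (1642, 1802 and 1188 CPM), the receptor that takes up filtered protein and gentamicin, were abundant. All 13 tested gene models of the proximal tubule list were lower after gentamicin, as were 13.4% of all tested gene models. The list summed to 585 and 588 CPM in the gentamicin libraries against 8937 to 10798 CPM in the controls. Of 5 tested distal nephron gene models 4 were lower too. That list summed to 1998 and 2328 CPM after gentamicin against 3144 to 3722 CPM in the controls. Of 10 tested macrophage gene models 8 were higher, beside 13.3% of all tested gene models. The macrophage list summed to 1663 and 1361 CPM after gentamicin against 125 to 187 CPM in the controls, and CD163 was listed at 0. In whole kidney RNA, fewer cells of a type and less RNA per cell cannot be told apart. The part of these cell type markers in the chaperone differences was not tested. Gentamicin libraries also had larger TMM factors (1.111 and 1.175) than controls (0.9008 to 0.9316).

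Most chaperone gene models differed little between gentamicin-injured and control kidneys. Of 85 tested, 6 (7.06%) were higher and 10 (11.8%) were lower in gentamicin kidneys at an adjusted p under 0.05 (edgeR quasi-likelihood test, Benjamini-Hochberg over all 22006 tested gene models). Over all tested gene models 13.3% were higher and 13.4% lower. Without the 13q pair of HSP70 models described below, which passed the filter only through the gentamicin libraries, 4 of 83 (4.82%) were higher. With scaling to total counts, which moves the median log2 fold change of all gene models to 0.33, the split was 27 higher (31.8%, background 28.1%) and 3 lower (3.53%, background 8.61%). The median log2 fold change of the tested chaperones was 0.02, with quartiles of -0.21 and 0.20, beside 0.01 with quartiles of -0.45 and 0.40 over all tested gene models. Their median size of change, sign aside, was 0.20 on the log2 scale, against 0.42 over all. Of the 85, 69 (81.2%) stayed within 1.5-fold of control, as did 61.5% of all gene models. The chaperones were also the more deeply counted genes, with a median level of 30.3 CPM, against 9.94 CPM over all tested gene models. The 2 groups did not overlap in 40 of the 85 (47.1%), beside 55.3% of all. At a 2-fold minimum 2 chaperone gene models were higher (2.35%, background 7.43%), both of the 13q pair, and 1 was lower (1.18%, background 7.75%).

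**Figure D1:**
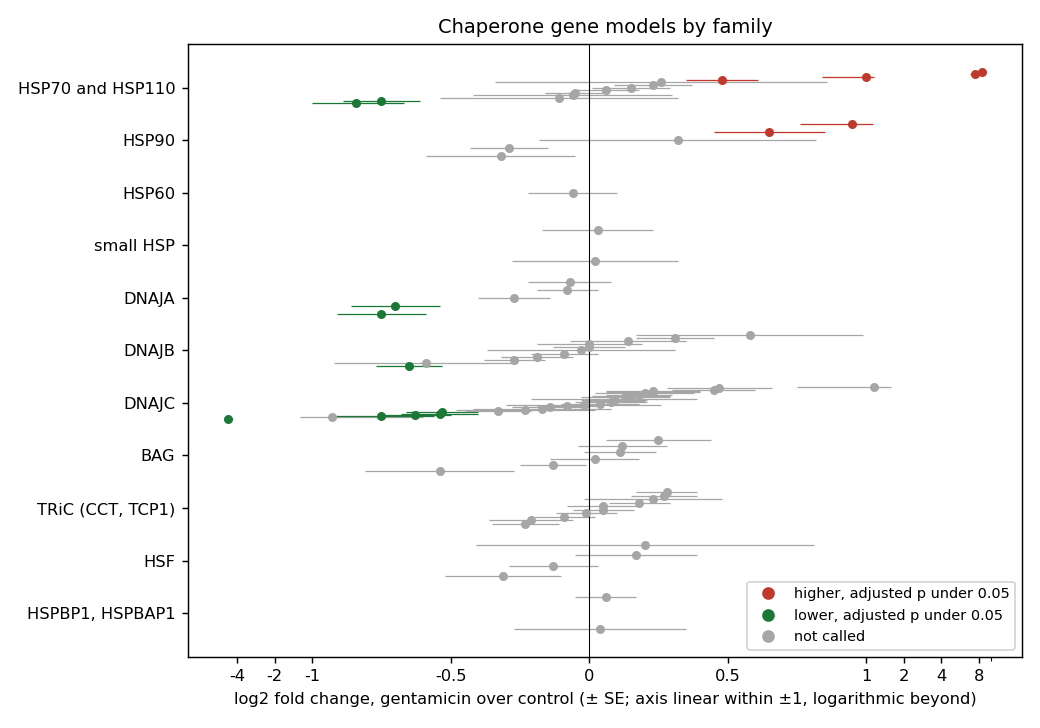
Log2 fold change, gentamicin over control, with its standard error, for the 85 tested chaperone gene models, grouped by family and coloured by the edgeR call (the axis is linear within 1 on either side of 0 and logarithmic beyond). Most points sit near 0, 2 HSP70 models stand at 7.48 and 8.45, and DNAJC22 stands at -4.76.

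Leaving out a gentamicin library leaves 1 animal in that arm, so the controls alone give the spread and that animal is assumed to vary like them. Without gentamicin 1 the count was 4 higher and 3 lower, and without gentamicin 3 it was 3 higher and 2 lower. The log2 fold changes of the 16 called models moved by a median of 0.05 and at most 0.50 in these fits. Only 4 of the 16 called gene models were called under all 15 refits: a pair of HSP70 models on chromosome 13q, HSPA13 and DNAJC22. The 13q pair passed the filter only through the gentamicin libraries and had to differ, so its calls are no sign of stability. With total-count scaling all 6 higher calls, the pair among them, were kept. Of the 10 lower ones 3 were, DNAJC22, HSPA9 and 1 HSPA8 model.

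Of 13 tested HSP70 models 4 were higher (30.8%, background 13.3%) and 2 lower (15.4%, background 13.4%). With total-count scaling 7 were higher and 2 lower (background 28.1% and 8.61%). Of the 4, 2 are an overlapping pair whose reads cannot be told apart and which passed the filter only through the gentamicin libraries. Those 2 had to be higher under both scalings, so neither the share of 30.8% nor the 7 can be read against the background. Most of the family's counts came from a single HSPA8 model. HSPA8, or HSC70, is the constitutive HSP70 of the cytosol. The model AMEX60DD053480 on chromosome 9p (13910534 to 13917883, minus strand) stood at 4251 and 4040 CPM after gentamicin, against 3126, 3706 and 3761 CPM in the controls. Both gentamicin libraries were above every control, but the difference did not pass the test (log2 fold change 0.23 ± 0.14 SE, 95% interval -0.09 to 0.55, edgeR adjusted p = 0.262). It was called higher with total-count scaling. This model alone took 0.471% and 0.473% of all counts in the gentamicin libraries and 0.281%, 0.338% and 0.350% in the controls.

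HSPA8 had 4 other gene models, with 1 called lower, 1 called higher, 1 not called and 1 too scarce to test. AMEX60DD017913 on chromosome 1q (449504053 to 450334360, plus strand) stood at 167 and 158 CPM in gentamicin kidneys and at 285, 303 and 233 CPM in controls. All gentamicin values lay below all controls, a 1.68-fold fall (log2 fold change -0.75 ± 0.14, edgeR adjusted p = 0.00560), which was lost without gentamicin 3 (adjusted p = 0.0627). As a share of the counts of AMEX60DD053480 it was 3.94% and 3.92% after gentamicin, against 6.20% to 9.12% in controls. The model AMEX60DD002074 on chromosome 10p, which was not called, stood at 1.87% to 2.21% of its counts in every library (79.6 and 83.9 CPM after gentamicin, 62.1, 82.0 and 77.4 CPM in controls). Its length of 1461 bases equals its span on the chromosome, so the model holds no intron. Near-identical copies can share reads, and how the counting placed such reads was not given in the sources used here.

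The largest rises were those of 2 overlapping HSP70 models on chromosome 13q that were close to silent in control kidneys. The HSPA8-named AMEX60DD010754 (448041287 to 448366351, plus strand) had 515 and 865 counts in the gentamicin libraries and 0, 3 and 1 counts in the controls. The HSPA1L-named AMEX60DD010755 (448159503 to 448366455, minus strand) had 336 and 702 counts after gentamicin and 1, 5 and 0 counts in controls. HSPA1L in mammals lies beside the inducible HSPA1 genes. Scaled to depth, the plus-strand model stood at 30.6 and 45.0 CPM after gentamicin against 0, 0.218 and 0.0723 CPM in controls. The minus-strand model stood at 20 and 36.5 CPM after gentamicin against 0.0814, 0.364 and 0 CPM in controls. Gentamicin 3 was the higher of the injured animals for both, and no control held more than 5 counts of either model. From the summed counts scaled to depth, the ratio of gentamicin to control was 382 for AMEX60DD010754 (95% counting interval 149 to 1403) and 191 for AMEX60DD010755 (87.6 to 523). These intervals cover counting error only. Both models reached the count minimum and the filter through the gentamicin libraries alone (4 and 6 counts summed over the controls), so they had to differ, and no p is given for them. The fitted log2 fold changes of 8.45 and 7.48 became 9.67 and 9.24 without control 2, which held most of the control counts, and ran between 6.88 and 9.67 over the fits that left out 1 library. The models share 206849 bases on opposite strands. The strand setting of the counting was not given in the sources used here, so reads of one cannot be told from reads of the other.

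Other gene models in this stretch of chromosome 13q gave a mixed picture. Within 1.0 megabase on each side lay 17 gene models including the pair, of which 7 were tested. Of these, 3 were higher and 2 were lower, beside 13.3% and 13.4% of all tested gene models. The pair, which had to differ, makes up 2 of the 3 higher. Of the 2 lower, AMEX60DD010761 had 2 and 3 counts after gentamicin and 14, 10 and 13 counts in controls. It passed the filter only through the controls, so it had to be lower. The numbers of calls therefore cannot be set against those shares. The other higher one, DXO, stood at 15.6 and 17.2 CPM after gentamicin against 0.407, 2.11 and 3.11 CPM in controls (log2 fold change 3.10, edgeR adjusted p = 0.0146). The nearest tested neighbour on one side, named TRIM69, stood at 76.1 and 76.1 CPM in gentamicin kidneys and at 76.9, 73.1 and 76.4 CPM in controls (log2 fold change 0.01). On the other side it was LSM2, at 37.8 and 32.3 CPM after gentamicin against 28.4, 22.0 and 32.4 CPM in controls (log2 fold change 0.34, not called). One more HSP70-named model in the window, AMEX60DD010752, is listed at 0 in all 5 libraries.

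HSPA13, an HSP70 of the endoplasmic reticulum, was higher in both injured kidneys. It stood at 37.4 and 37.8 CPM after gentamicin against 20.8, 15.3 and 20.3 CPM in controls, with no overlap. The rise was just under the 2-fold minimum (log2 fold change 0.997 ± 0.16, edgeR adjusted p = 0.00237). HSPA14, which works with DNAJC2 on new chains leaving the ribosome, stood at 89.4 and 85.4 CPM after gentamicin against 66.8, 54.5 and 66.0 CPM in controls, a 1.40-fold rise (edgeR adjusted p = 0.0233) that was lost in 5 of the 15 refits, including those without either gentamicin library. HSPA14 is named here as a called gene chosen after its values were seen. Its partner DNAJC2 stood at 44.2 and 41.5 CPM after gentamicin and 35.4, 25.8 and 32.7 CPM in controls (log2 fold change 0.45 ± 0.15, edgeR adjusted p = 0.0614), and it was called higher in 3 of 15 refits. DNAJC2 is also named after its values were seen.

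HSPA9, or mortalin, is the HSP70 of the mitochondrial matrix, and the more abundant of its 2 models was lower. Its main model AMEX60DD030435 stood at 11.7 and 11.1 CPM after gentamicin, below all controls at 23.5, 19.6 and 18.1 CPM (1.79-fold lower, edgeR adjusted p = 0.00725). The call was lost without gentamicin 1 (adjusted p = 0.0588), without gentamicin 3 (0.0775) and on unfiltered FPKM (0.0595). The second HSPA9 model, AMEX60DD026047, was near 1 CPM or below in both groups, and its length of 4717 bases equals its span on the chromosome. Whether the HSPA9 models hold all the reads of the gene was not tested.

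The remaining HSP70 models were not called. HSPA4, of the HSP110 branch of exchange factors, stood at 311 and 350 CPM in gentamicin kidneys and 313, 337 and 299 CPM in controls. HSPA12B, known from endothelial cells in mammals, stood at 55.5 and 51.7 CPM after gentamicin against 55.3, 58.1 and 53.4 CPM in controls. HSPA2, abundant in the mammalian testis, stood at 2.20 and 2.18 CPM after gentamicin against 1.71, 3.05 and 2.10 CPM in controls. Summed over the family, HSP70 came to 5058 and 4906 CPM after gentamicin against 3958, 4582 and 4536 CPM in controls, with the abundant HSPA8 model making up most of it.

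**Figure D2:**
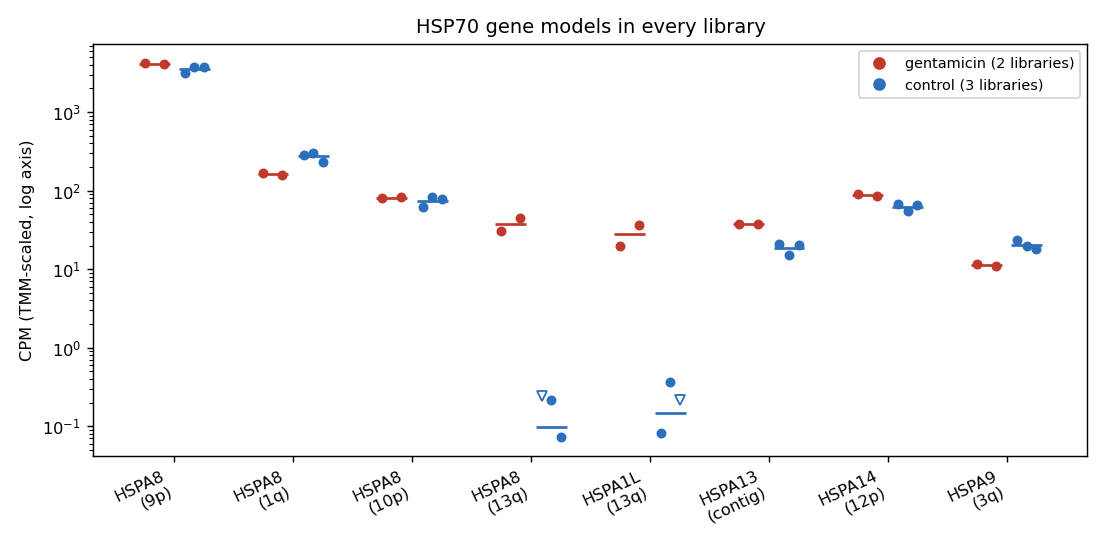
CPM on a log axis in each library for 8 HSP70 gene models, with their chromosome arm or contig in brackets, gentamicin left and control right (points are libraries, bars are means, and open triangles mark 0 counts drawn at the floor of 3 counts). The 13q pair stands far above controls that lie near the floor, HSPA13 and HSPA14 are higher, and the 1q HSPA8 and HSPA9 are lower.

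HSP90 showed a low-level alpha form that rose and an abundant beta form that did not pass the test. HSP90AA1, the stress-inducible cytosolic HSP90, was read from AMEX60DD011358 on chromosome 14p at 36.9 and 39.4 CPM after gentamicin and at 19.5, 15.3 and 24.6 CPM in controls. The groups did not overlap and the rise was 1.93-fold (log2 fold change 0.95 ± 0.19, edgeR adjusted p = 0.00770), which was lost without gentamicin 1 (0.0555), without gentamicin 3 (0.0789) and on unfiltered FPKM (0.0539). HSP90AB1, its constitutive counterpart, stood at 3308 and 2980 CPM in gentamicin kidneys against 4026, 4071 and 3421 CPM in controls. Both gentamicin values were below every control, yet the difference did not pass (log2 fold change -0.29 ± 0.14, 95% interval -0.61 to 0.04, edgeR adjusted p = 0.174), and it was 0.03 with total-count scaling.

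A second model called higher, AMEX60DD011360, carries HSP90AA1 as one of its names but is described in the deposited table as a WD repeat-containing protein 20. It stood at 16.9 and 24.3 CPM after gentamicin and 13.8, 11.2 and 14.4 CPM in controls (1.57-fold, edgeR adjusted p = 0.0447). Its identity is uncertain, and it was called in 7 of 15 refits (log2 fold change 0.65 with both gentamicin libraries and 0.36 without gentamicin 3). HSP90B1, the HSP90 of the endoplasmic reticulum, was read at means of at most 3.79 CPM from a pair of models, neither of them called. The higher of the pair, AMEX60DD018744, has a length of 1950 bases that equals its span on the chromosome, so it holds no intron. The other, AMEX60DD008374, was at most 1.04 CPM in any library. Whether these models hold all the reads of the gene was not tested.

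J proteins gave calls in 1 direction in the edgeR fit. Of 42 tested models 0 were higher and 8 (19.0%) were lower after gentamicin (background 13.3% and 13.4%). With total-count scaling 11 were higher and 1 was lower (background 28.1% and 8.61%). At an unadjusted p under 0.05, 4 were higher and 11 lower, and DESeq2 called 0 higher and 10 lower. Shares of all gene models at an unadjusted p and in DESeq2 were not counted, here or below. The median log2 fold change of the 42 was -0.05.

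**Figure D3:**
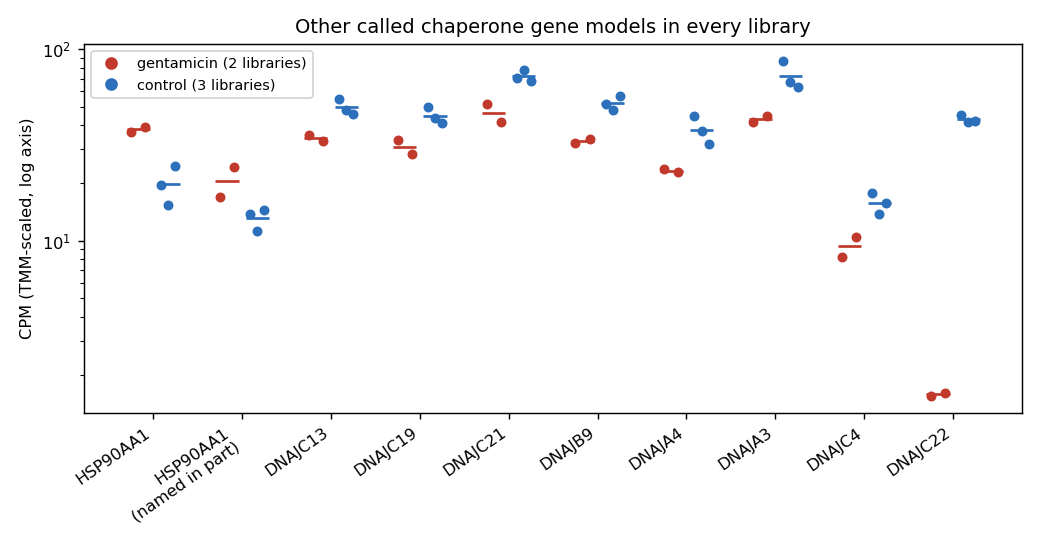
CPM on a log axis in each library for the 10 called chaperone gene models outside HSP70, gentamicin left and control right (points are libraries, bars are means). The HSP90AA1-named models are higher after gentamicin, 8 J proteins are lower, and DNAJC22 is set apart by its 27.0-fold fall.

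DNAJC22 fell further than any other chaperone. DNAJC22 is a membrane-spanning J protein whose Drosophila counterpart, Wurst, serves endocytosis. It stood at 1.55 and 1.61 CPM in the gentamicin libraries, against 45.1, 41.5 and 42.1 CPM in the controls. The libraries of each group lay close together and the groups were far apart, a 27.0-fold fall (log2 fold change -4.76 ± 0.16, 95% interval -5.13 to -4.38, edgeR adjusted p = 2.13e-06). Proximal tubule markers fell in the same libraries (summed 585 and 588 CPM after gentamicin, 8937 to 10798 CPM in controls), and their part in the fall of DNAJC22 was not tested.

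Among DNAJA proteins, the general partners of HSP70, 2 of 5 tested models fell (40.0%, background 13.4%). With total-count scaling 0 were lower (background 8.61%). DNAJA3, the mitochondrial J protein TID1, stood at 41.4 and 44.8 CPM after gentamicin against 86.8, 67.3 and 63.6 CPM in controls (1.68-fold lower, edgeR adjusted p = 0.00925). DNAJA4, a cytosolic relative, stood at 23.7 and 22.7 CPM after gentamicin against 44.5, 37.2 and 31.8 CPM in controls (1.63-fold lower, edgeR adjusted p = 0.0141). Both calls were lost without gentamicin 1, without gentamicin 3, with total-count scaling and on unfiltered FPKM, with adjusted p-values of 0.0623 to 0.119. Without gentamicin 1 or 3 their log2 fold changes were -0.69 and -0.81 for DNAJA3, against -0.75 with both, and -0.73 and -0.67 for DNAJA4, against -0.70 with both. The most abundant of the family, DNAJA1 (AMEX60DD044130), stood at 257 and 215 CPM in gentamicin kidneys and at 291, 295 and 265 CPM in controls, without a call (log2 fold change -0.27, edgeR adjusted p = 0.159), and the log2 fold change was 0.05 with total-count scaling. A second DNAJA1 model, AMEX60DD016852, stood at 24.6 and 19.8 CPM after gentamicin against 23.9, 24.6 and 21.5 CPM in controls.

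Of 11 tested DNAJB models edgeR called 1 lower (background 13.4%) and DESeq2 2, the second being DNAJB6. DNAJB9, or ERdj4, a J protein of the endoplasmic reticulum, stood at 32.2 and 34.1 CPM after gentamicin and at 51.8, 48.0 and 56.7 CPM in controls (1.57-fold lower, edgeR adjusted p = 0.00583), a call that neither total-count scaling (0.0872) nor leaving out gentamicin 1 (0.0672) kept. Another model, AMEX60DD006335, carries DNAJB9 as one of its names and THAP5 as the other, and overlaps the first on the opposite strand. Its identity is uncertain, and it was not called (5.00 and 3.02 CPM after gentamicin against 4.72, 7.93 and 5.35 CPM in controls). DNAJB1, the heat-inducible partner of HSP70, was not called, at 54.6 and 51.1 CPM after gentamicin and 53.6, 40.1 and 65.2 CPM in controls (95% interval of the log2 fold change -0.46 to 0.45). The most abundant DNAJB, DNAJB6, which holds back protein clumping, stood at 90.8 and 85.3 CPM after gentamicin against 104, 106 and 109 CPM in controls and was not called by edgeR (adjusted p = 0.0973) but was by DESeq2 (0.0427). DNAJB13, a radial spoke protein of motile cilia, stood at 4.64 and 7.65 CPM after gentamicin against 5.78, 8.65 and 4.41 CPM in controls. The motile ciliated cell list had 0 of 14 tested models called by edgeR or DESeq2 (1 lower at an unadjusted p under 0.05) and 152 and 163 CPM in sum after gentamicin against 158 to 160 CPM in controls.

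The DNAJC family, the most varied in its tasks, had 5 of 26 tested models lower (19.2%, background 13.4%) and 0 higher in edgeR. At an unadjusted p under 0.05, 7 were lower and 3 higher, and DESeq2 called 6 lower and 0 higher. With total-count scaling 1 was lower and 10 were higher (background 8.61% and 28.1%). Beside DNAJC22, DNAJC21, which helps to finish the large ribosomal subunit, stood at 51.5 and 41.7 CPM after gentamicin against 70.5, 77.4 and 68.4 CPM in controls (1.55-fold lower, edgeR adjusted p = 0.00986). DNAJC13, which acts on endosomes, stood at 35.4 and 33.0 CPM after gentamicin against 54.6, 48.1 and 46.0 CPM in controls (1.45-fold lower, edgeR adjusted p = 0.0158). A second DNAJC13 model, AMEX60DD022592, was not called (5.35 and 4.68 CPM after gentamicin against 6.92, 5.31 and 4.77 CPM in controls). DNAJC19, of the mitochondrial import motor, stood at 33.5 and 28.4 CPM after gentamicin against 50.1, 43.4 and 41.3 CPM in controls, and DNAJC4 at 8.27 and 10.5 CPM after gentamicin against 17.8, 13.7 and 15.8 CPM in controls. These 2 complete the 5 lower DNAJC models and are named after their values were seen (edgeR adjusted p = 0.0242 and 0.0225). Without gentamicin 3 or with total-count scaling none of DNAJC21, DNAJC13, DNAJC19 and DNAJC4 was called, and without gentamicin 1 or on unfiltered FPKM only DNAJC21 of these was.

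Some DNAJC models had larger folds without passing in the reported fit, named after their values were seen. DNAJC15, a relative of DNAJC19 in mitochondria, stood at 5.59 and 5.83 CPM after gentamicin and at 2.12, 4.07 and 1.45 CPM in controls, with no overlap (log2 fold change 1.16 ± 0.41, edgeR adjusted p = 0.0700), and it was called higher in 4 of 15 refits, among them those without control 2, without a filter and with total-count scaling. DNAJC28 stood at 2.92 and 2.29 CPM after gentamicin against 3.50, 5.16 and 6.21 CPM in controls (log2 fold change -0.93 ± 0.33, edgeR adjusted p = 0.0688), and it was called lower in 2 of 15, without a filter and without control 1. The most abundant DNAJC model, AMEX60DD012548, carries DNAJC3 (P58IPK, of the endoplasmic reticulum) as one of its names and has no description. It stood at 109 and 125 CPM after gentamicin against 154, 140 and 148 CPM in controls (edgeR adjusted p = 0.0705). It was called lower in DESeq2 (adjusted p = 0.0294). The model named and described as DNAJC3 alone, AMEX60DD048619, stood at 12.6 and 11.0 CPM after gentamicin. Its controls were at 10.1, 18.0 and 13.4 CPM (log2 fold change -0.23, edgeR adjusted p = 0.535).

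The mitochondrial folding set gave 3 lower (37.5%) and 0 higher calls among 8 tested models (background 13.4% lower and 13.3% higher). The 3 were HSPA9 (AMEX60DD030435), DNAJA3 and DNAJC19. With total-count scaling 1 was lower and 1 higher (background 8.61% and 28.1%). At an unadjusted p under 0.05 edgeR gave 4 lower and 1 higher, and DESeq2 called 3 lower and 0 higher. HSPD1, the HSP60 of the matrix, was not among them. It stood at 413 and 422 CPM after gentamicin and at 478, 342 and 482 CPM in controls, whose own spread held both gentamicin values (log2 fold change -0.06, 95% interval -0.44 to 0.32). The set of the endoplasmic reticulum had 1 higher (HSPA13, 7.69%) and 1 lower (DNAJB9, 7.69%) of 13 tested. DESeq2 called 1 higher and 2 lower. With total-count scaling 4 were higher and 0 lower (background 28.1% and 8.61%). DNAJB11, or ERdj3, in that set stood at 63.8 and 64.4 CPM after gentamicin against 56.2, 43.7 and 54.8 CPM in controls (log2 fold change 0.31, edgeR adjusted p = 0.131). Both sets were chosen after the values were known, so their shares are no test against the background. The mitochondrial set also leaves out the mitochondrial genes of the other folding list described below.

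All 8 subunits of TRiC were measured and none was called by edgeR, where 26.8% of all tested gene models were called. At an unadjusted p under 0.05, 1 of the 8 was higher, CCT4, and DESeq2 called it too. Taking the most abundant model of each subunit, log2 fold changes ran between -0.23 for CCT5 and 0.28 for CCT4. CCT5 stood at 649 and 572 CPM after gentamicin and at 723, 738 and 688 CPM in controls (95% interval of the log2 fold change -0.50 to 0.04). CCT4 stood at 357 and 328 CPM after gentamicin against 292, 278 and 274 CPM in controls (0.03 to 0.54, edgeR adjusted p = 0.0949). TCP1, which gave the complex its name, stood at 262 and 232 CPM after gentamicin against 266, 255 and 264 CPM in controls. The groups did not overlap in 4 of the 8 subunits (55.3% of all gene models), with CCT3, CCT4 and CCT7 above and CCT5 below control, and with total-count scaling 5 of the 8 were called higher (background 28.1%).

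Per length the subunits kept much the same order in every library. CCT5 led at 285 and 252 FPKM (fragments per kilobase and library total, the authors' deposited scale) after gentamicin and at 319, 324 and 300 FPKM in controls. CCT6A, CCT8 and CCT4 followed in that order in all 5 libraries, and the other subunits changed places among themselves. This order takes only the most abundant model of each subunit. A second CCT8 model, AMEX60DDU001007079, is left out of it. That model stood at 123 and 90.4 FPKM after gentamicin and at 130, 123 and 116 FPKM in controls. CCT5 stood 2.95 and 2.94 times above the lowest subunit in the gentamicin libraries and 3.31 to 3.57 times above it in controls. The lowest subunit was TCP1 in both gentamicin libraries and CCT3 or CCT7 in the controls, so the ratio does not compare the same genes.

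**Figure D4:**
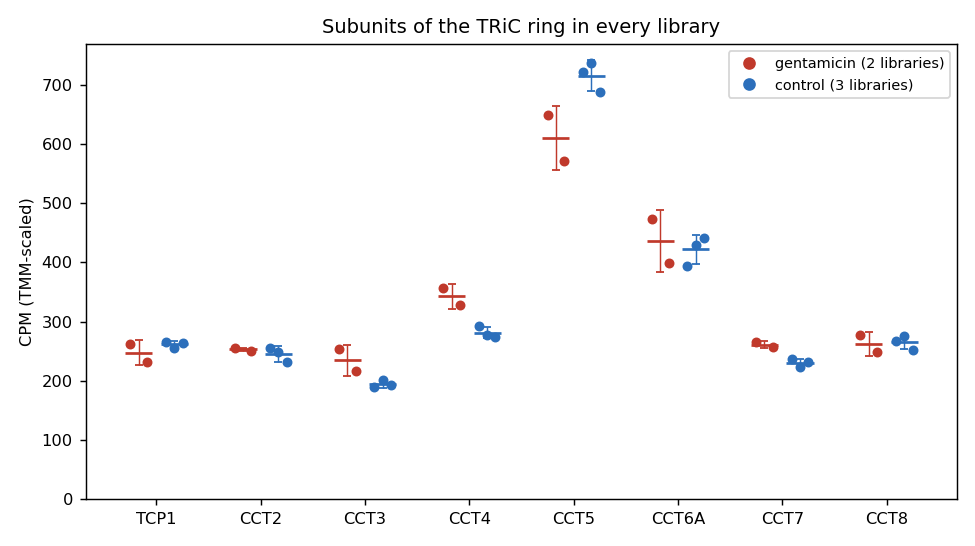
CPM in each library for the most abundant gene model of each TRiC subunit, gentamicin left and control right (points are libraries, with the mean and its SD). CCT5 is the highest subunit in both groups, at 649 and 572 CPM after gentamicin and 688 to 738 CPM in controls, and edgeR called no subunit.

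Of the classic heat shock targets, DNAJB1, BAG3 and HSPB8 were not called. HSPB1 was too scarce to test, and HSPA1A, HSPA1B and HSPH1 were not matched by name, so the set is incomplete. The stress-inducible HSP90AA1 (AMEX60DD011358) was 1.93-fold higher, a call kept in 12 of the 15 refits (those that lost it are given above). The 13q pair, which had to differ, carries the names HSPA8 and HSPA1L and is not counted among these targets. None of 6 BAG models, none of 4 HSF models and neither of the 2 tested models with an HSPB name was called by edgeR, in either direction. Of these 2, HSPB8 is a small HSP and HSPB11 is none. Over all tested gene models 26.8% were called, so 0 calls among so few models says little. The count was also 0 at an unadjusted p under 0.05 and in DESeq2. BAG3, which sends HSP70 and HSPB8 clients to autophagy and is a classic heat shock target, stood at 32.2 and 32.1 CPM after gentamicin and at 28.1, 35.6 and 25.1 CPM in controls. Its partner HSPB8 stood at 3.09 and 3.12 CPM after gentamicin against 3.17, 2.40 and 3.61 CPM in controls. HSF1, the master heat shock factor, stood at 10.6 and 10.9 CPM after gentamicin against 10, 7.34 and 11.4 CPM in controls (95% interval of the log2 fold change -0.34 to 0.67). A pair of HSF2 models had log2 fold changes of -0.13 and -0.31, and HSF4 was at most 1.08 CPM in every library.

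The other BAG proteins were not called either. BAG6, which guards tail-anchored proteins and is the most abundant of the family, stood at 96.4 and 109 CPM in gentamicin kidneys and at 120, 109 and 108 CPM in controls. BAG1 stood at 20.6 and 21.1 CPM after gentamicin against 20, 18.7 and 19.4 CPM in controls, without overlap and without a call (edgeR adjusted p = 0.595), but it was called higher with total-count scaling. BAG2, an inhibitor of the ubiquitin ligase CHIP, stood at 3.75 and 2.86 CPM after gentamicin against 4.31, 5.45 and 4.62 CPM in controls (edgeR adjusted p = 0.182). HSPBP1, another exchange factor, stood at 47.6 and 44.3 CPM after gentamicin against 45.3, 44.0 and 42.5 CPM in controls. HSPB11, grouped here by name, is a protein of intraflagellar transport and stood at 8.27 and 7.07 CPM after gentamicin against 7.24, 7.49 and 7.73 CPM in controls.

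Too scarce to test were 6 of the 91 gene models: HSPB1 and HSPB7, both small HSPs, and short second models of DNAJB13, DNAJC6, CCT5 and HSPA8. HSPB1, strongly heat-inducible in mammals, had 0.476 and 0 CPM after gentamicin and 0.0814, 0.291 and 0.578 CPM in controls. Differences of these models were not detectable at this depth. HSPA1A, HSPA1B, HSPE1 and HSPH1 were not matched by name and were not analysed here.

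Across the 91 models, levels per length ran from near 0 to 1313 FPKM. In every library 6 models were at 100 FPKM or more, 33 at 10 or more and 70 at 1 or more, and 13 were below 1 in all. HSPA8 AMEX60DD053480 (1313 and 1252 FPKM after gentamicin, 969, 1143 and 1153 in controls) and HSP90AB1 (862 and 779 FPKM after gentamicin, 1053, 1059 and 884 in controls) held the first 2 places in every library. HSPA8 led in both gentamicin libraries and in controls 2 and 3, while HSP90AB1 led in control 1. All chaperones together took 1.53% and 1.52% of counts in gentamicin libraries and 1.22%, 1.27% and 1.25% in controls, but on the TMM scale their sum was 13808 and 12966 CPM after gentamicin against 13562, 13975 and 13418 CPM in controls. On the first scale the groups were apart and on the second gentamicin 1 lay within the control range.

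Other genes of the folding system were taken from a list of 56 symbols for co-chaperones, prefoldin, mitochondrial proteases and protein disposal, of which 52 had a gene model. Of 59 tested models 6 were higher and 6 were lower after gentamicin (background 13.3% and 13.4%), with a median log2 fold change of 0.04. With total-count scaling 23 were higher and 2 lower (background 28.1% and 8.61%). UNC45B, 1 of the 6 higher and named after its values were seen, stood at 0.892 and 1.87 CPM after gentamicin. Its controls were at 0, 0.218 and 0.145 CPM. It passed the filter only through the gentamicin libraries, so it had to be higher. Among the higher ones were SQSTM1 and PPID. SQSTM1 (p62), which carries ubiquitinated protein to autophagy, stood at 310 and 467 CPM after gentamicin against 151, 186 and 167 CPM in controls (2.31-fold, edgeR adjusted p = 0.00219). PPID, or cyclophilin 40, a partner of HSP90, stood at 53.7 and 52.5 CPM after gentamicin against 25.1, 21.4 and 33.1 CPM in controls (2.0-fold, edgeR adjusted p = 0.00448).

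VCP fell most among the lower ones. VCP, or p97, the ATPase that pulls ubiquitinated proteins out of membranes and complexes, stood at 15.5 and 15.7 CPM after gentamicin against 61.0, 57.7 and 54.0 CPM in controls (3.70-fold lower, edgeR adjusted p = 2.32e-05). CLPX, the unfoldase of the mitochondrial matrix, stood at 73.5 and 80.4 CPM after gentamicin against 120, 120 and 117 CPM in controls (1.55-fold lower, edgeR adjusted p = 0.00360). PFDN1, a subunit of prefoldin, which hands actin and tubulin to TRiC, stood at 9.64 and 7.33 CPM after gentamicin against 15.1, 15.2 and 16.0 CPM in controls, read from model AMEX60DD029058 (1.82-fold lower, edgeR adjusted p = 0.00948), while its second model was not called. The call of CLPX was lost without gentamicin 1 (adjusted p = 0.0501) and with total-count scaling (0.0699), and that of PFDN1 without gentamicin 3 (0.0962). SQSTM1, PPID and VCP were called under every refit. The small heat shock protein CRYAB, on this list, is named after its values were seen. It stood at 60.3 and 71.9 CPM after gentamicin and at 26.2, 215 and 20.7 CPM in controls, where control 2 stood apart.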

How the data were processed

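TRIzol RNA and an NEBNext Ultra kit were used, per the labels' protocols. Tools named in the submitters' processing notes are HISAT2 2.0.5, featureCounts 1.5.0-p3, fastp, CASAVA 2.19 and DESeq2 1.20.0. The genome build was not given in the sources used here, and coordinates are those of the deposited tables. The authors deposited raw counts and FPKM values in tables whose names are exchanged, which the values show: counts are whole numbers, and FPKM equal counts per length and total times a factor for each library (0.8835 and 0.8387 for gentamicin, 1.0453 to 1.0943 for controls).

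Counts were tested with edgeR 4.0.16 (R 4.3.3) with TMM scaling, filterByExpr (minimum count 10, total 15) and the quasi-likelihood test on all 22006 gene models kept, with Benjamini-Hochberg adjustment and a threshold of 0.05. The test was first run on simulated data, where known changes came out with the right size, but the share of false calls was above the nominal threshold, so calls near it are the least certain. DESeq2 1.42.0 and limma 3.58.1 on log2(FPKM + 1) were alternatives. Genes were named by rule: per family the 3 called models with the smallest p and the most abundant model, all called models with a 4-fold change, and a list of classic chaperones. Members and lists were chosen with earlier results of these data known. A gene that the name prefixes would also catch, and a gene of the other folding list that the naming rule picks, are not reported here. Library pairs of a group differed by more than sampling noise. Error intervals are 95% and cover counting or library spread only.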

Additional observations from a re-analysis of the deposited data

How the results depend on the processing

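Numbers of called chaperones were 6 higher and 10 lower. They moved by over 1.5 times to 27 higher and 3 lower with total-count scaling, to 3 and 4 on unfiltered log2(FPKM + 1), to 2 and 1 at a 2-fold minimum, and to 3 higher when only the first part of a gene name was matched, an alternative chosen after seeing the data. Leaving out 1 library each gave 3 to 6 higher and 2 to 11 lower. The other folding genes, 6 higher and 6 lower, moved to 23 and 2 with total-count scaling, to 3 higher on log2(FPKM + 1) and on log2(FPKM + 0.1) with a filter and on log2(FPKM + 1) without one, and to 1 lower at a 2-fold minimum. Leaving out 1 library each gave 2 to 6 higher and 2 to 7 lower. The cause of these moves was not tested, beyond the shift of the median of all gene models with total-count scaling and the smaller number of libraries, which leaves 1 animal in the gentamicin arm when one of its libraries is left out. Same-numbered libraries deviated from their group means with r = -0.0394 and 0.0639. With 2 gentamicin libraries these deviations mirror each other, so the values cannot show whether replicate numbers pair the animals. A fit with the replicate number as a block called 5 higher and 10 lower chaperones. Replicate 2 exists only as a control, so control 2 adds nothing to the group difference in that fit. With that block 4 uncalled values changed sign, to 0.21 for HSPA2, -0.13 for HSPB8, 0.013 for CCT8 and 0.25 for DNAJB13. No called chaperone changed sign in any refit. Signs were followed for 61 named gene models, not for all tested ones. Among these, with total-count scaling the log2 fold change of uncalled models turned positive for BAG6 (0.20), DNAJA1 (0.24 and 0.05), DNAJB1 (0.31), DNAJB6 (0.049), DNAJB13 (0.30), HSF2 (0.19 and 0.00), HSPD1 (0.27), HSPA2 (0.26), HSP90AB1 (0.031), HSPA12B (0.27), CCT5 (0.088), CCT8 (0.31) and TCP1 (0.23). DNAJB1, at 0 in the reported fit, was 0.023 and 0.027 on FPKM with a pseudocount of 1 and 0.1, and 0.010 without a filter of low counts. Leaving out 1 library each, signs crossed 0 among them for BAG3 (-0.007 to 0.26), DNAJA1 AMEX60DD016852 (-0.23 to 0.076), DNAJB1 (-0.18 to 0.15), DNAJB13 (-0.43 to 0.29), HSF1 (-0.004 to 0.29), HSPD1 (-0.21 to 0.011), HSPA2 (-0.24 to 0.19), HSPA4 (-0.026 to 0.15), HSPA9 AMEX60DD026047 (-0.468 to 0.741), HSPB8 (-0.14 to 0.14), HSPB11 (-0.079 to 0.14), TCP1 (-0.17 to 0.002), CCT2 (-0.017 to 0.065), CCT6A (-0.076 to 0.17) and CCT8 (-0.091 to 0.064). Of 907 values of these models under the refits, 790 kept their direction and side of the threshold. The search for promoter motifs was not run.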
